A study of Sus scrofa with 12 samples.

Results

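The cholesterol and fatty acid synthesis genes of the pig were followed through endothelial induction. A list of 31 gene symbols was drawn up by their place in the 2 routes and in the SREBP system that controls them, and was matched by Ensembl symbol to the 19681 genes measured in each of 12 RNA sequencing libraries. 29 of the 31 were found, and PMVK and LSS are not analysed here because no identifier in the files carried their symbols. The list holds enzymes of the mevalonate route, enzymes that carry squalene to cholesterol, regulators with 1 sterol carrier, and enzymes that make, elongate and desaturate fatty acids.

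The libraries came from porcine induced pluripotent stem cells (piPSCs) under stepwise endothelial induction and from AOC, a porcine endothelial cell line, with 3 biological replicates (A, B and C) in each of the 4 groups. IEC2 cells had been in EC differentiation medium with CHIR99021, an activator of Wnt signalling, for 2 days. IEC4 cells had then received BMP4, FGF2 and VEGF and were taken on day 4, and IEC12 cells had moved on to endothelial growth medium (EGM-2) with VEGF and were taken on day 12 without sorting. The culture medium therefore changed together with the day, so day and medium cannot be told apart, and AOC is 1 established line in its own culture.

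Cells make cholesterol from acetyl-CoA. The mevalonate route builds isoprenoid units, squalene synthase joins farnesyl units into squalene, and a chain of endoplasmic reticulum enzymes turns the closed ring into cholesterol. Transcription of these genes is governed by SREBP proteins: when membrane sterol is low, SCAP escorts SREBP to the Golgi for cleavage and the released fragment enters the nucleus, and when sterol is plentiful, the INSIG proteins hold SCAP back. Fatty acid synthesis draws on the same acetyl-CoA and is also under SREBP control, with SREBF1 favouring fatty acid genes and SREBF2 favouring sterol genes.

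Each value is an FPKM, the fragments assigned to a gene per kilobase of transcript after scaling to library size, so levels may be set side by side between genes. Summed over genes, a library held 335976.4 to 457193.7 FPKM, and 8357 to 10467 genes reached 1 FPKM. The number of reads is unknown. Most endothelial markers found set AOC apart. CDH5 was 103 to 137 FPKM in AOC and listed at 0 in all 9 IEC libraries. PECAM1 was 91.7 to 131 FPKM in AOC and 0.0198 to 0.105 in IEC12. KDR went the other way against IEC2, at 2.42 to 3.99 FPKM in IEC2 and 1.31 to 1.46 in AOC. The summed level of the 10 endothelial markers found was 296.1 to 421.3 FPKM in AOC and 0.425 to 0.578 in IEC12, so the endothelial markers found were at or near 0 in IEC12. From that stage the study sorted CD31-positive cells into a group not analysed here. CD31 is the product of PECAM1, and flow cytometry in the paper, a measure of protein, found a minority of day 12 cells positive. Why PECAM1 RNA was so low in IEC12 was not tested. VWF and CLDN5, also on that marker list, are not analysed here. The 4 epithelial markers found summed to 316.5 to 821.7 FPKM in IEC4 and to at most 21.2 in any other library. In such bulk libraries, fewer cells of a type and less RNA per cell cannot be told apart.

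Of the 29 genes found, 27 reached 1 FPKM in at least 3 libraries and were tested. FDPS, the farnesyl diphosphate synthase, lay between 0 and 0.164 FPKM in all 12 libraries and SREBF1 between 0 and 0.0713, and no level or change is read from them. The level of SREBF1 therefore gives no view of the fatty acid arm of the SREBP system in these libraries.

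More of the genes were called higher than lower at day 4, lower than higher at day 12 against day 4 and higher than lower in AOC, but they did not move as 1 block. All tested genes leaned the same way at these stage steps. Of them, 24.8% were higher and 12.5% lower at day 4, and 17.3% and 26.9% at day 12. The shares of the 27 were 51.9% and 3.7%, then 7.41% and 51.9%. In AOC, fewer of all tested genes were higher than lower against each stage. AOC had the highest mean FPKM for 16 of the 27 genes, IEC4 for 6, IEC2 for 4 and IEC12 for 1. Among the 3 induction stages alone, IEC4 was highest for 17, IEC2 for 5 and IEC12 for 5. The same counts over all tested genes were not made, so these cannot be set beside a share of all genes. The heat map of the 27 genes shows 14 of the 15 tested sterol enzymes above their mean in AOC and TM7SF2 below it, whereas in IEC4 some sterol enzymes lay above their mean and others, among them SQLE and EBP, below.

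**Figure D1:**
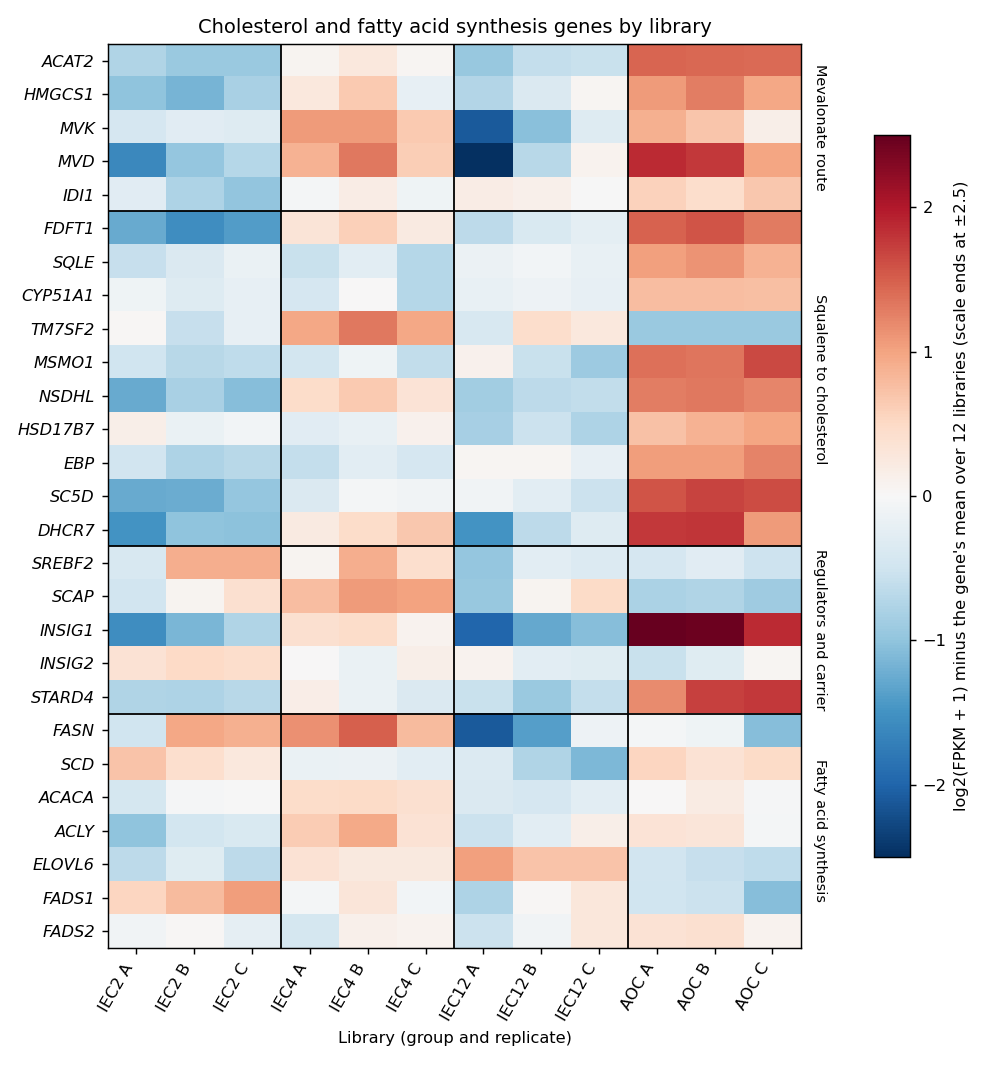
Level of the 27 tested genes (rows, grouped by role) in the 12 libraries (columns), as log2(FPKM + 1) minus the gene's mean over all 12 libraries; red is above and blue below that mean. In AOC, 14 genes lie above all 9 IEC libraries, beside 15.6% of all tested genes, while TM7SF2, SCAP, ELOVL6 and FADS1 are low there.

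Tests were made with limma on log2(FPKM + 1), and a gene was called at a Benjamini-Hochberg adjusted p under 0.05 over all genes of the fit. From IEC2 to IEC4, 14 of the 27 rose, beside 24.8% of all tested genes, and 1 fell, beside 12.5%. The median log2 fold change of the 27 was 0.69, and that of all tested genes was 0.20. Among those that rose were 4 genes of the mevalonate route and 5 from squalene to cholesterol, with INSIG1, STARD4, ACACA, ACLY and ELOVL6. SCD, the stearoyl-CoA desaturase, was the gene that fell.

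From IEC4 to IEC12 the direction turned. 14 of the 27 fell, beside 26.9% of all tested genes, and 2 rose, beside 17.3%, with a median log2 fold change of -0.59 for the 27 and -0.15 for all genes. EBP and ELOVL6 were the 2 that rose. IEC12 against IEC2 gave 5 higher, beside 24.2% of all genes, and 5 lower, beside 19.3%, and the medians were 0.04 and 0.03. IDI1, FDFT1, EBP, SC5D and ELOVL6 were the genes that were higher at day 12 than at day 2, and HSD17B7, INSIG2, FASN, SCD and FADS1 were lower. These shares lay below or near those of all genes. The 3 stage comparisons share libraries and are not independent of one another.

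AOC stood above each stage. Against IEC2, 17 of the 27 were higher, beside 26.7% of all tested genes, and 5 were lower, beside 37.1%. Against IEC4 the counts were 15 higher, beside 22.1%, and 7 lower, beside 47%. Against IEC12 they were 18 higher, beside 22.4%, and 2 lower, beside 36.2%. The median log2 fold changes of the 27 were 0.97, 0.66 and 1.15, and those of all tested genes were -0.20, -0.45 and -0.22. These 3 comparisons share the AOC libraries.

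**Figure D2:**
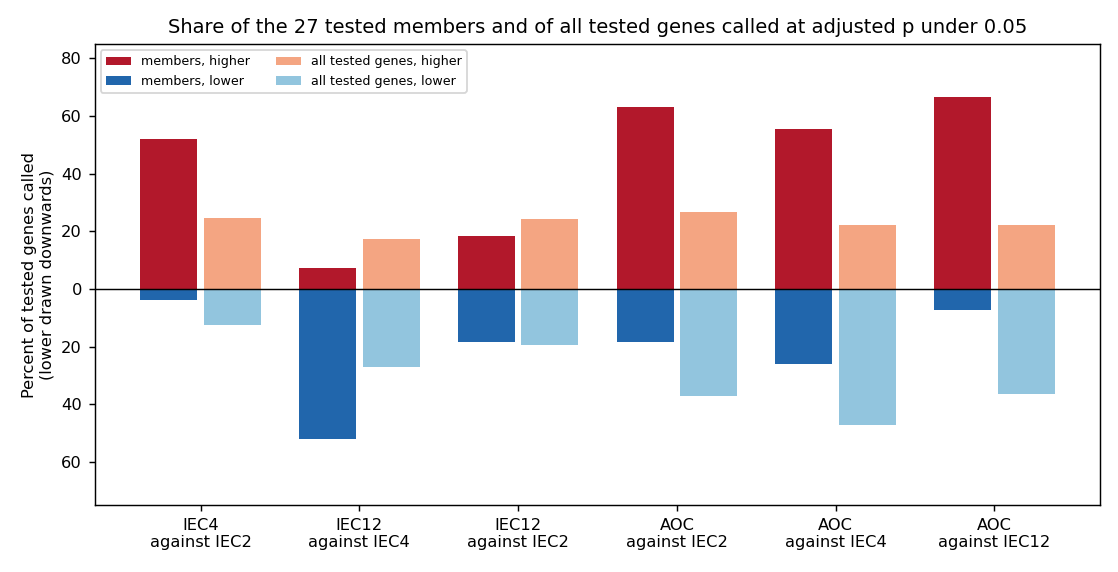
Percent of the 27 tested members (dark bars) and of all tested genes (light bars) called higher (upwards) or lower (downwards) in each of the 6 comparisons, at a limma adjusted p under 0.05. The members reach 51.9% higher in IEC4 against IEC2 and 66.7% higher in AOC against IEC12, and 51.9% lower in IEC12 against IEC4.

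Counts by library, with no model, gave the same outline. In 14 of the 27 genes all 3 AOC libraries lay above all 9 IEC libraries, beside 15.6% of all tested genes. All 3 IEC4 libraries lay above the other 6 IEC libraries in 12 genes, beside 18.4%. The IEC12 libraries did so in 2 genes, EBP and ELOVL6, beside 14.8%, and the IEC2 libraries in 3, INSIG2, SCD and FADS1, beside 10.5%.

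Library scaling moved the centre of all genes. With median-of-ratios scaling, the all-gene median of IEC4 against IEC2 went from 0.20 to -0.01 and the members split into 11 higher and 3 lower. The same scaling took the all-gene median of AOC against IEC4 from -0.45 to -0.02 with 16 members higher and 3 lower, and that of AOC against IEC2 from -0.20 to -0.01 with 19 higher and 2 lower. With libraries brought to equal totals, IEC12 against IEC4 had an all-gene median of -0.32 with 0 members higher and 16 lower. The shares of all genes called under these scalings were not computed, so these counts cannot be set beside them.

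The mevalonate route opens with ACAT2, the cytosolic thiolase that joins 2 acetyl-CoA units. ACAT2 was 54.2, 47.5 and 47.5 FPKM in IEC2, 96.7, 111 and 95.2 in IEC4, 47.4, 60.2 and 62.5 in IEC12, and 254, 249 and 246 in AOC. No IEC4 library overlapped IEC2 or IEC12, and AOC lay far above them all. The limma log2 fold change was 1.01 ± 0.14 (SE, n = 3 against 3, adjusted p = 0.000514) from IEC2 to IEC4, -0.83 ± 0.14 (adjusted p = 0.00145) from IEC4 to IEC12, and 2.13 ± 0.12 (adjusted p = 3.79e-08) for AOC against IEC12.

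HMGCS1 makes HMG-CoA in the next step. Its FPKM was 10.1, 8.99 and 11.7 in IEC2, 25.7, 34.3 and 18.5 in IEC4, 12.5, 16.5 and 22.2 in IEC12, and 46.0, 53.5 and 43.0 in AOC. The rise at day 4 passed the test (log2 fold change 1.23 ± 0.25, limma adjusted p = 0.00435), while IEC4 and IEC12 overlapped and their difference of -0.58 ± 0.25 did not (adjusted p = 0.0873). That difference passed when IEC12 C or IEC4 C was left out, with an adjusted p as low as 0.0325. AOC lay above every IEC library, by 1.45 ± 0.23 against IEC12 (adjusted p = 0.000208).

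MVK, the mevalonate kinase, was the mevalonate gene that was not highest in AOC. It was 7.05, 7.85 and 7.62 FPKM in IEC2, 21.5, 21.6 and 15.9 in IEC4, 1.51, 4.21 and 7.55 in IEC12, and 18.8, 16.4 and 10.9 in AOC. All IEC4 libraries lay above IEC2 and IEC12, and AOC overlapped IEC4, from which it differed by -0.36 (95% interval -1.14 to 0.42 on the log2 scale). The fall from IEC4 to IEC12 was the firmer change (-2.09 ± 0.37, limma adjusted p = 0.00176), since the rise from IEC2 to IEC4 (1.27 ± 0.37, adjusted p = 0.0224) lost its call without IEC4 A, IEC4 B or any 1 IEC2 library, with an adjusted p of up to 0.0725. The difference of 0.91 ± 0.36 between AOC and IEC2 (adjusted p = 0.041) likewise lost its call without AOC A, AOC B or any 1 IEC2 library (adjusted p up to 0.13).

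MVD, the decarboxylase that yields isopentenyl diphosphate, moved widely and unevenly. Its FPKM was 15.7, 25.1 and 29.8 in IEC2, 91.7, 126 and 76.5 in IEC4, 3.37, 30.4 and 52.9 in IEC12, and 183, 172 and 99.9 in AOC. IEC4 did not overlap IEC2, with a mean 4.16 times as high, yet the difference of 2.03 ± 0.75 missed the threshold (limma adjusted p = 0.0575). That fit pools the spread with IEC12, where the libraries ran from 3.37 to 52.9. Fitted on IEC2 and IEC4 alone, it had an adjusted p of 0.000529. The fall to IEC12 (-2.31 ± 0.75, adjusted p = 0.0308) lost its call without IEC4 A, B or C (adjusted p up to 0.091) and was -1.24 without IEC12 A (adjusted p = 0.0137). AOC against IEC12 was 2.92 ± 0.70 (adjusted p = 0.00362), and 1.84 without IEC12 A.

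IDI1, which isomerises isopentenyl diphosphate, was abundant throughout, and no change from day 4 to day 12 passed the test. It was 192, 137 and 117 FPKM in IEC2, 226, 266 and 215 in IEC4, 267, 256 and 230 in IEC12, and 350, 316 and 374 in AOC. The difference between IEC12 and IEC4 was 0.10 on the log2 scale (95% interval -0.31 to 0.50). Its rise at day 4 (0.69 ± 0.18, limma adjusted p = 0.0141) lost its call without IEC4 B or IEC2 B (adjusted p up to 0.0611), and its excess in AOC over IEC12 (0.46 ± 0.16, adjusted p = 0.03) lost its call without AOC A, AOC C, IEC12 B or IEC12 C (adjusted p up to 0.0957).

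The FPKM of the mevalonate genes summed to 213.2 to 279.0 in IEC2, 421.6 to 558.5 in IEC4, 331.9 to 375.4 in IEC12 and 774.6 to 852.4 in AOC. The 4 ranges did not overlap, and IDI1 and ACAT2 made up most of each sum.

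**Figure D3:**
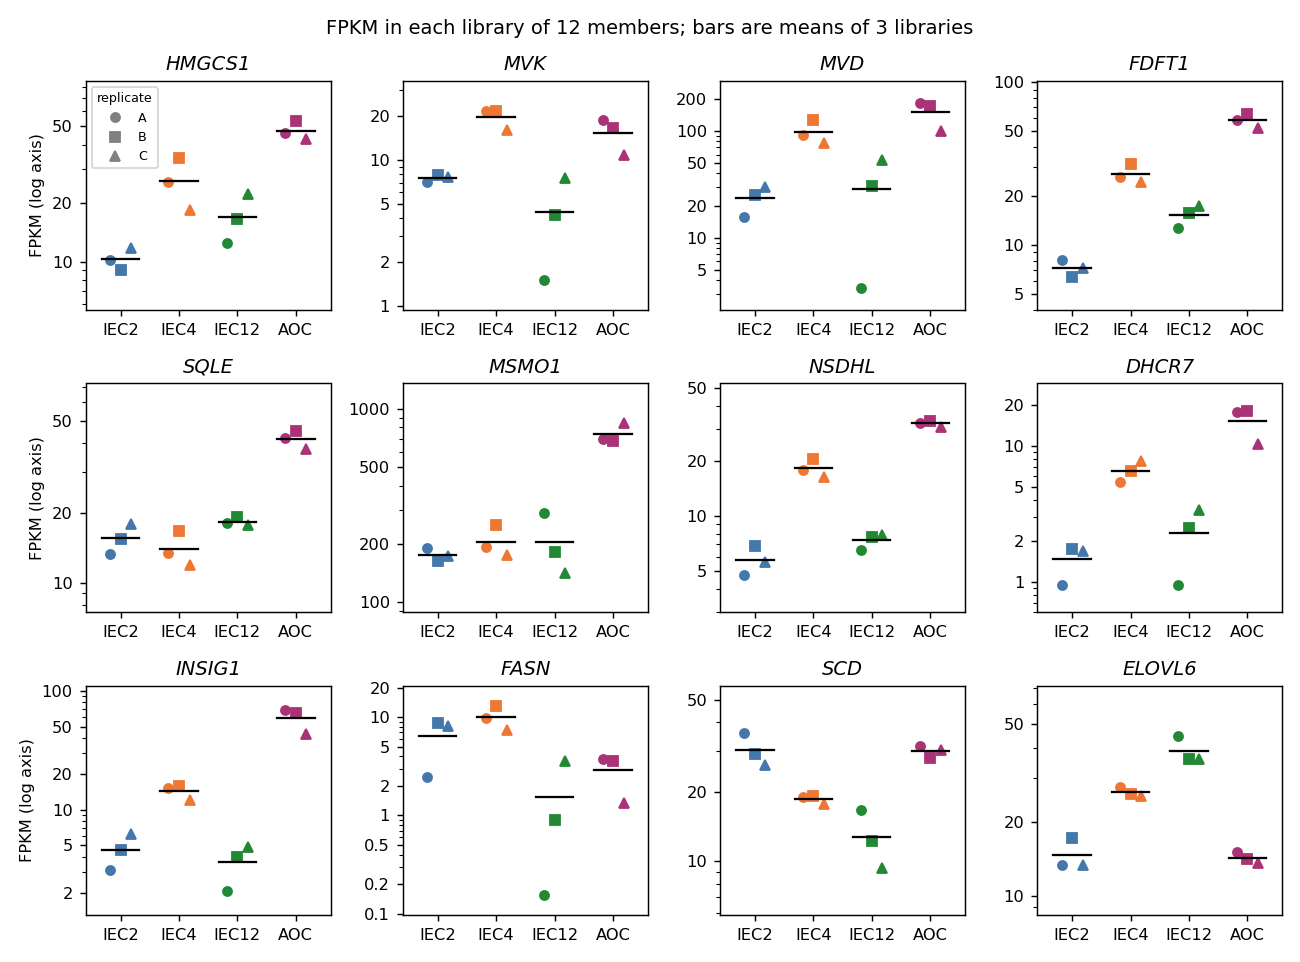
FPKM of 12 members in each library on a log axis; circles, squares and triangles are replicates A, B and C, and black bars are means of 3 libraries. FDFT1, NSDHL, DHCR7 and INSIG1 rise at IEC4, fall at IEC12 and are highest in AOC, SQLE and MSMO1 are high in AOC alone, and SCD and ELOVL6 move the other way from each other across the 3 stages.

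From squalene to cholesterol, 9 of the 10 tested enzymes were higher in AOC than in each of the 3 stages, and the exception was TM7SF2. Of all tested genes, 26.7%, 22.1% and 22.4% were higher in AOC than in IEC2, IEC4 and IEC12. Within the induction series the same enzymes parted into genes that rose at day 4 and genes that did not. FDFT1, TM7SF2, NSDHL, SC5D and DHCR7 rose, beside 24.8% of all tested genes, whereas SQLE, CYP51A1, MSMO1, HSD17B7 and EBP did not pass the test.

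FDFT1 is squalene synthase, the first enzyme committed to sterols, and lies on chromosome 14 from 14976259 to 15010701 in the Sscrofa11.1 assembly. It was 8.07, 6.37 and 7.20 FPKM in IEC2, 26.1, 31.5 and 24.3 in IEC4, 12.7, 15.6 and 17.3 in IEC12, and 58.7, 63.5 and 52.4 in AOC. The 4 groups did not overlap. It rose by 1.78 ± 0.17 from IEC2 to IEC4 (limma adjusted p = 5.67e-05), changed by -0.81 ± 0.17 to IEC12 (adjusted p = 0.00437), was still 0.97 ± 0.17 above IEC2 at day 12 (adjusted p = 0.00138), and in AOC was 2.85 ± 0.15 above IEC2 (adjusted p = 1.78e-08).

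NSDHL, a dehydrogenase that helps to strip methyl groups from the sterol ring, followed the same course and lies on chromosome X from 123906130 to 123921935. It was 4.76, 6.83 and 5.58 FPKM in IEC2, 17.8, 20.6 and 16.3 in IEC4, 6.55, 7.71 and 7.90 in IEC12, and 32.2, 33.1 and 30.8 in AOC. IEC12 overlapped IEC2, and the other pairs of groups did not overlap. The log2 fold changes were 1.52 ± 0.17 (limma adjusted p = 0.000149) from IEC2 to IEC4, -1.19 ± 0.17 (adjusted p = 0.000642) from IEC4 to IEC12 and 1.98 ± 0.14 (adjusted p = 3.35e-07) for AOC against IEC12.

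DHCR7, the last reductase before cholesterol, had the lowest level at day 2 of the tested sterol enzymes apart from TM7SF2. It was 0.956, 1.75 and 1.70 FPKM in IEC2, 5.42, 6.58 and 7.78 in IEC4, 0.954, 2.51 and 3.38 in IEC12, and 17.8, 18.1 and 10.4 in AOC. Every IEC4 library lay above IEC2 and IEC12 and below AOC. The mean of AOC was 10.5 times that of IEC2 and 2.34 times that of IEC4, and the changes at day 4 (1.63 ± 0.30, limma adjusted p = 0.00246) and day 12 (-1.28 ± 0.30, adjusted p = 0.00747) both passed.

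SC5D, a desaturase of the ring, rose at day 4, and no fall at day 12 passed the test. It was 5.35, 5.40 and 6.80 FPKM in IEC2, 10.8, 13.7 and 13.2 in IEC4, 13.3, 11.6 and 9.43 in IEC12, and 44.1, 47.8 and 46.4 in AOC. IEC4 and IEC12 overlapped, with a difference of -0.14 on the log2 scale (95% interval -0.53 to 0.26). The rise at day 4 was 0.99 ± 0.18 (limma adjusted p = 0.00217), and AOC was 1.93 ± 0.15 above IEC12 (adjusted p = 5.59e-07).

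SQLE, the squalene epoxidase, was among the enzymes that did not pass the test at day 4. Its FPKM was 13.3, 15.5 and 17.9 in IEC2, 13.5, 16.7 and 11.9 in IEC4, 18.0, 19.1 and 17.7 in IEC12, and 42.1, 45.3 and 37.8 in AOC. IEC2 and IEC4 overlapped, and their difference was -0.14 (95% interval -0.51 to 0.23 on the log2 scale, limma adjusted p = 0.529). AOC was 1.14 ± 0.15 above IEC12 (adjusted p = 3.83e-05).

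CYP51A1, the demethylase of lanosterol, lay at 55.8 to 92.1 FPKM in all 9 IEC libraries and at 155 to 158 in AOC. MSMO1, the methylsterol monooxygenase, lies on chromosome 8 from 43726834 to 43745784 and was the most abundant of the 27 genes in AOC, at 702, 679 and 843 FPKM against 142 to 289 in the IEC libraries. Neither passed any of the 3 tests between stages, with limma adjusted p-values of 0.373 to 0.902. The differences between AOC and IEC12 were 0.94 ± 0.15 for CYP51A1 (adjusted p = 0.000198) and 1.91 ± 0.22 for MSMO1 (adjusted p = 1.53e-05).

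HSD17B7 and EBP moved in opposite directions at day 12. HSD17B7, a ketoreductase of the same demethylation steps as NSDHL, was 40.3, 32.5 and 34.5 FPKM in IEC2, 29.6, 32.0 and 39.2 in IEC4, 20.0, 24.9 and 20.8 in IEC12, and 61.5, 67.2 and 72.7 in AOC. IEC12 lay below both earlier stages (-0.59 ± 0.15 against IEC4, limma adjusted p = 0.0127), a call that was lost under median-of-ratios scaling (-0.37, adjusted p = 0.124). EBP, the isomerase of the ring double bond, was 67.1, 54.8 and 57.3 FPKM in IEC2, 61.9, 77.3 and 69.9 in IEC4, 96.9, 96.2 and 81.1 in IEC12, and 193, 194 and 223 in AOC. Its day 12 libraries lay above both earlier stages, although the step from IEC4 (0.39 ± 0.14, adjusted p = 0.0446) kept its call only without IEC12 C among the 6 libraries left out in turn (adjusted p up to 0.141).

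TM7SF2, a sterol reductase that acts after CYP51A1, was listed at 0 in all 3 AOC libraries. It was 0.919, 0.262 and 0.633 FPKM in IEC2, 2.69, 3.72 and 2.71 in IEC4, and 0.426, 1.57 and 1.26 in IEC12. IEC4 lay above the other stages, by 1.34 ± 0.26 over IEC2 (limma adjusted p = 0.00312), and the fall to IEC12 of 0.99 ± 0.26 (adjusted p = 0.0126) lost its call without IEC4 B (adjusted p = 0.0507). LBR encodes a protein with the same reductase activity and was looked at after the TM7SF2 values were seen. LBR was 32.12, 42.47 and 34.31 FPKM in AOC and between 19.58 and 41.88 in the IEC libraries.

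The enzymes from squalene to cholesterol, FDFT1 and SQLE among them, summed to 361.6 to 415.3 FPKM in IEC2, 416.3 to 543.9 in IEC4, 380.0 to 538.3 in IEC12 and 1307 to 1472 in AOC. The 3 stages overlapped in this sum, which is dominated by MSMO1, and AOC lay above them.

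**Figure D4:**
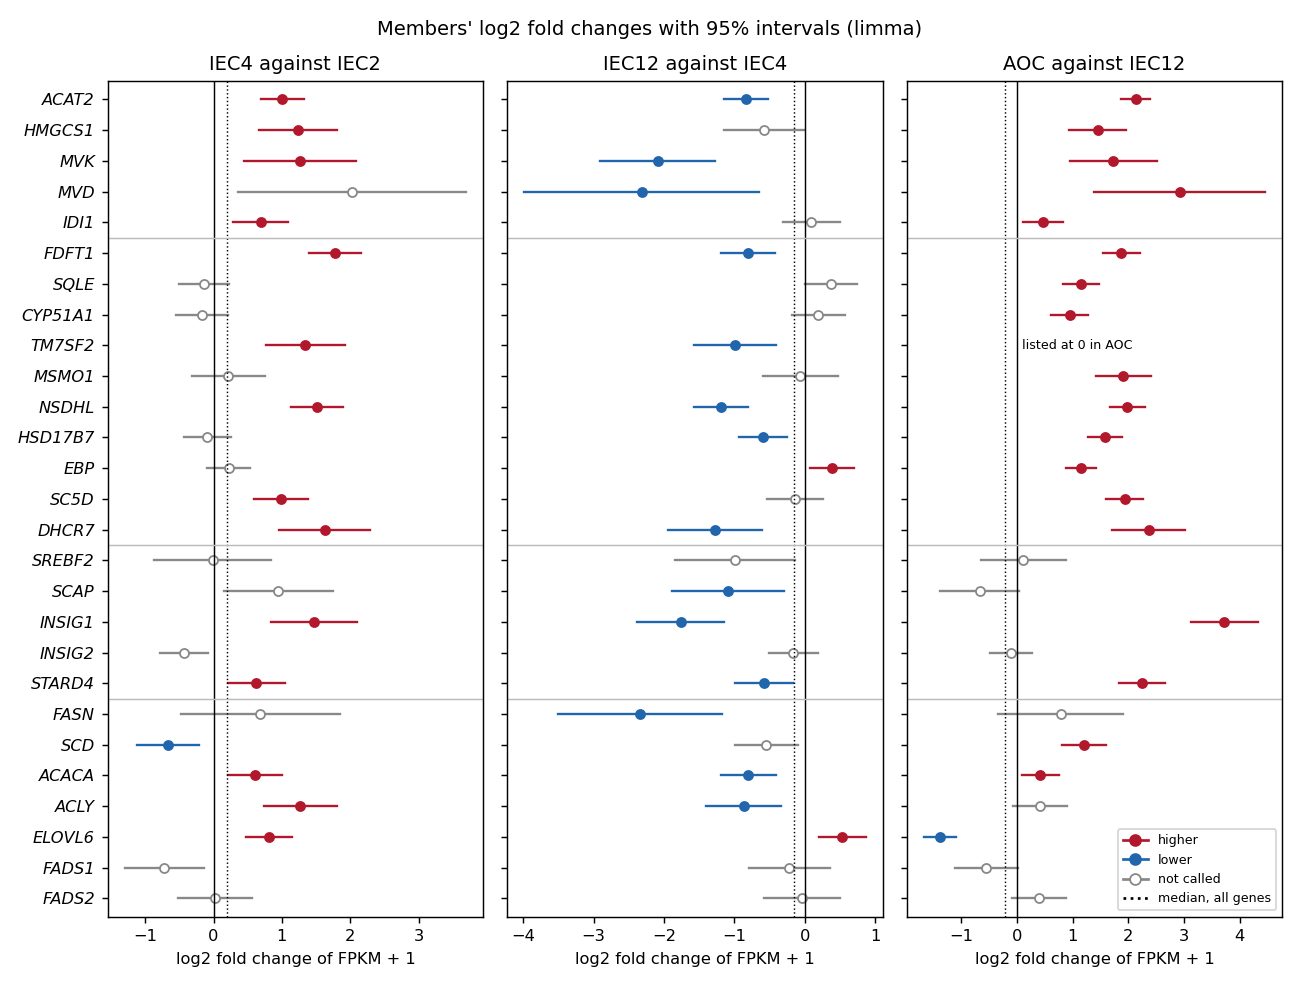
Log2 fold change of FPKM + 1 with its 95% interval for the 27 members in 3 comparisons; red is called higher, blue called lower and open grey not called, and the dotted line is the median of all tested genes (0.20, -0.15 and -0.22). Red points of the left panel recur as blue points of the middle panel for ACAT2, MVK, FDFT1, TM7SF2, NSDHL, DHCR7, INSIG1, STARD4, ACACA and ACLY, and these 2 panels share the IEC4 libraries.

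Among the regulators, SREBF2, SCAP and INSIG2 were lower in AOC than in IEC2, and INSIG1 and STARD4 were higher. SREBF2 encodes the SREBP that favours sterol genes and was 2.43, 7.56 and 7.50 FPKM in IEC2, 3.74, 7.47 and 5.04 in IEC4, 1.31, 2.79 and 2.58 in IEC12, and 2.37, 2.73 and 2.16 in AOC. IEC2 and IEC4 overlapped, with a difference of -0.01 (95% interval -0.87 to 0.84 on the log2 scale). In AOC, 14 of the 15 tested sterol enzymes were higher than in IEC2, beside 26.7% of all tested genes. The mean of SREBF2 in AOC was 0.415 of its IEC2 mean. The lower level in AOC passed against IEC2 (-0.88 ± 0.35, limma adjusted p = 0.0422) and IEC4 (-0.87 ± 0.35, adjusted p = 0.0417), but each call was lost in 5 of 6 fits that left out 1 library, the exceptions being IEC2 A and IEC4 A (adjusted p up to 0.157). AOC and IEC12 differed by 0.12 (95% interval -0.65 to 0.87).

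SCAP, the escort of SREBP, was 1.62, 2.85 and 3.85 FPKM in IEC2, 5.24, 6.68 and 6.33 in IEC4, 0.892, 2.85 and 4.07 in IEC12, and 1.12, 1.17 and 0.991 in AOC. All IEC4 libraries lay above all others. AOC was lower than IEC4 by 1.75 ± 0.32 on the log2 scale (limma adjusted p = 0.000466), which held in every fit that left out 1 library. The rise at day 4 (0.95 ± 0.36, adjusted p = 0.0615) did not pass, and the fall to IEC12 (-1.08 ± 0.36, adjusted p = 0.033) kept its call only without IEC12 C (adjusted p up to 0.0916). The difference from IEC2 in AOC (-0.81 ± 0.32, adjusted p = 0.0453) kept its call only without IEC2 A (adjusted p up to 0.165).

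INSIG1 holds the SCAP complex in the endoplasmic reticulum and is itself a well-known SREBP target. It was 3.13, 4.54 and 6.19 FPKM in IEC2, 15.1, 15.7 and 12.0 in IEC4, 2.09, 3.99 and 4.84 in IEC12, and 68.6, 65.6 and 43.5 in AOC. IEC4 lay above the other stages and below AOC without overlap. The mean of AOC was 16.3 times that of IEC12, the highest ratio among the 27 genes in that comparison, and the log2 fold changes were 1.47 ± 0.28 (limma adjusted p = 0.00288) at day 4, -1.76 ± 0.28 (adjusted p = 0.00106) at day 12 and 3.72 ± 0.27 (adjusted p = 3.45e-07) for AOC against IEC12. In Sscrofa11.1 the gene lies on chromosome 18 from 2885494 to 2898758.

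INSIG2 has the same retention role but is not driven by SREBP in the same way. It was highest in IEC2, at 18.2, 19.9 and 19.2 FPKM, and lay at 14, 12.3 and 15.5 in IEC4, 14.9, 11.3 and 11.1 in IEC12, and 9.08, 11.1 and 14.4 in AOC. Its level at day 12 was below that at day 2 (-0.59 ± 0.16, limma adjusted p = 0.0126), a call lost without IEC12 B (adjusted p = 0.058). Where INSIG1 was 12.8 times as high in AOC as in IEC2, INSIG2 was at 0.602 of its IEC2 mean (-0.71 ± 0.17, adjusted p = 0.00332), a call lost under median-of-ratios scaling (-0.47, adjusted p = 0.0694).

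STARD4, a carrier that moves cholesterol between membranes, was 5.89, 5.77 and 6.15 FPKM in IEC2, 12.1, 9.36 and 8.03 in IEC4, 6.88, 5.06 and 6.66 in IEC12, and 25.1, 36.8 and 38.5 in AOC. It was 5.40 times as high in AOC as in IEC12 (log2 fold change 2.25 ± 0.19, limma adjusted p = 1.19e-06). IEC4 lay above the other stages, but the rise (0.62 ± 0.19, adjusted p = 0.025) kept its call only without IEC4 C (adjusted p up to 0.0918), and the fall (-0.58 ± 0.19, adjusted p = 0.0295) lost its call without IEC12 B, IEC4 A or IEC4 B (adjusted p up to 0.119).

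The genes that cleave or turn over SREBP and its partners, a separate list of 5 genes found, gave 0 higher and 0 lower from IEC2 to IEC4, beside 24.8% and 12.5% of all genes, and 0 higher and 3 lower from IEC4 to IEC12, beside 17.3% and 26.9%. ERLIN2, a partner in the degradation of endoplasmic reticulum proteins, was lower in AOC than in each stage, by 1.05 ± 0.17 against IEC12 on the log2 scale (limma adjusted p = 0.00021).

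Fatty acid genes were called in both directions in AOC. Of the 7, 1 was higher and 1 lower in AOC than in IEC2, beside 26.7% and 37.1% of all genes. Against IEC4, 1 was higher and 4 were lower, beside 22.1% and 47%, so the lower share was near that of all genes. Against IEC12, 2 were higher and 1 was lower, beside 22.4% and 36.2%. Their sum was 104.5 to 124.8 FPKM in IEC2, 106.5 to 135.1 in IEC4, 92.2 to 107.6 in IEC12 and 79.7 to 98.2 in AOC.

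ACLY cleaves citrate to acetyl-CoA and so feeds both routes. It was 8.86, 13.4 and 14.3 FPKM in IEC2, 30.0, 37.2 and 24.7 in IEC4, 12.7, 15.6 and 21.0 in IEC12, and 24.1, 23.5 and 18.3 in AOC. IEC4 lay above all other libraries. It rose by 1.27 ± 0.24 at day 4 (limma adjusted p = 0.00279), and the fall at day 12 (-0.87 ± 0.24, adjusted p = 0.0158) lost its call without IEC12 B or IEC4 B (adjusted p up to 0.0654). Its excess in AOC over IEC2 (0.82 ± 0.23, adjusted p = 0.00736) was lost with libraries at equal totals (0.50, adjusted p = 0.113).

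ACACA, the acetyl-CoA carboxylase, was 1.02, 1.68 and 1.71 FPKM in IEC2, 2.74, 2.81 and 2.62 in IEC4, 1.11, 1.03 and 1.28 in IEC12, and 1.76, 2.15 and 1.69 in AOC. Like ACLY it was highest in IEC4 without overlap. The fall at day 12 passed (-0.80 ± 0.17, limma adjusted p = 0.00537), whereas the rise (0.61 ± 0.17, adjusted p = 0.022) lost its call without IEC4 A, IEC4 B or IEC2 A (adjusted p up to 0.0683). The differences of -0.38 from IEC4 and 0.42 from IEC12 in AOC each lost their call in 5 of 6 fits without 1 library, those without AOC B and IEC12 C being the exceptions (adjusted p up to 0.133).

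FASN, the fatty acid synthase, was among the most uneven genes between replicates. It was 2.47, 8.69 and 8.18 FPKM in IEC2, 9.88, 13.0 and 7.47 in IEC4, 0.156, 0.905 and 3.54 in IEC12, and 3.76, 3.58 and 1.35 in AOC. IEC2 and IEC4 overlapped (0.69, 95% interval -0.48 to 1.85 on the log2 scale), and IEC12 lay below IEC4 in every library (-2.34 ± 0.52, limma adjusted p = 0.00595). The difference from IEC2 at day 12 (-1.65 ± 0.52, adjusted p = 0.028) lost its call without IEC12 A, IEC12 B, IEC2 B or IEC2 C (adjusted p up to 0.0996). AOC was lower than IEC4 by 1.55 ± 0.51 (adjusted p = 0.018), a call lost without AOC C or IEC4 B (adjusted p up to 0.0761).

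SCD and FADS1 were highest at the start of induction. SCD introduces the double bond of oleate and was 35.9, 29.2 and 26.1 FPKM in IEC2, 18.9, 19.3 and 17.7 in IEC4, 16.6, 12.3 and 9.38 in IEC12, and 31.6, 28.0 and 30.5 in AOC. No stage overlapped the next, and AOC overlapped IEC2 with a difference of -0.01 (95% interval -0.40 to 0.39 on the log2 scale). IEC12 was lower than IEC2 by 1.21 ± 0.20 (limma adjusted p = 0.00112), and AOC was 1.20 ± 0.18 above IEC12 (adjusted p = 0.000127). The single step from IEC2 to IEC4 (-0.67 ± 0.20, adjusted p = 0.0272) kept its call only without IEC2 C (adjusted p up to 0.0988).

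FADS1 desaturates polyunsaturated chains. It was 42.0, 50.4 and 60.4 FPKM in IEC2, 28.0, 35.8 and 27.3 in IEC4, 16.6, 29.5 and 35.0 in IEC12, and 20.2, 19.5 and 13.2 in AOC. IEC2 lay above all other libraries, and AOC was at 0.346 of the IEC2 mean (-1.49 ± 0.26, limma adjusted p = 0.00032). The difference between IEC4 and IEC2 (-0.72 ± 0.26, adjusted p = 0.0517) did not pass the test. The fall from IEC2 to IEC12 (-0.94 ± 0.26, adjusted p = 0.0157) lost its call without IEC2 C (adjusted p = 0.0624), and that in AOC against IEC4 (-0.77 ± 0.26, adjusted p = 0.0199) without AOC C or IEC4 B (adjusted p up to 0.0873). FADS2, its neighbour on chromosome 2 and partner in the same pathway, was 0.438 to 1.73 FPKM in the 12 libraries and passed none of the 6 tests.

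ELOVL6, the elongase of palmitate, ran opposite to SCD. It was 13.4, 17.2 and 13.4 FPKM in IEC2, 27.7, 25.8 and 25.5 in IEC4, 44.5, 36.1 and 35.8 in IEC12, and 15.1, 14.1 and 13.5 in AOC. The 3 stages did not overlap, each above the one before. It rose by 0.81 ± 0.15 at day 4 (limma adjusted p = 0.00239) and was 1.35 ± 0.15 above IEC2 at day 12 (adjusted p = 0.000101). The step from IEC4 to IEC12 (0.54 ± 0.15, adjusted p = 0.0161) lost its call without IEC4 B (adjusted p = 0.054) and with libraries at equal totals (0.33, adjusted p = 0.106). AOC overlapped IEC2 (-0.03, 95% interval -0.32 to 0.26).

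Further fatty acid genes outside the 31 also moved in both directions. Of 15 tested enzymes of fatty acid supply, elongation and activation, 7 rose and 3 fell from IEC2 to IEC4, beside 24.8% and 12.5% of all genes, and 5 rose and 7 fell from IEC4 to IEC12, beside 17.3% and 26.9%. ME1, the malic enzyme that supplies NADPH, was 2.39, 3.90 and 3.35 FPKM in IEC2, 25.8, 30.5 and 29.2 in IEC4, 2.80, 2.42 and 3.95 in IEC12, and 29.5, 29.3 and 19.9 in AOC. Like INSIG1 and NSDHL it was high in IEC4 and AOC and low in IEC2 and IEC12, with log2 fold changes of 2.82 ± 0.20 at day 4 (limma adjusted p = 1.31e-05) and -2.88 ± 0.20 at day 12 (adjusted p = 1.54e-05). ACSL5, an acyl-CoA synthetase, was 27.6 to 33.4 FPKM in AOC and at most 3.82 in any IEC library, whereas ACSL3, of the same family, was 1.86 ± 0.13 lower in AOC than in IEC12 (adjusted p = 2.25e-07).

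Genes of neighbouring branches were tested as well. Of 9 tested genes of the non-sterol isoprenoid branch, 2 rose and 1 fell at day 4, beside 24.8% and 12.5% of all genes, with NUS1 and DHDDS, the subunits of the dolichol-chain synthase, as the 2 that rose (1.03 ± 0.20 and 0.93 ± 0.26, limma adjusted p = 0.00301 and 0.0201). Of 11 tested genes of sterol handling, 1 rose and 1 fell at day 4, beside the same shares of all genes. SOAT1, which esterifies cholesterol, rose by 1.24 ± 0.19 (adjusted p = 0.0008), and NPC2, a lysosomal sterol carrier, changed by -0.51 ± 0.14 (adjusted p = 0.0177). From IEC4 to IEC12, 3 of these 11 rose and 4 fell, beside 17.3% and 26.9% of all genes. NPC2 rose by 1.49 ± 0.14 (adjusted p = 7.69e-05) and MYLIP by 2.05 ± 0.22. NR1H2 changed by -2.02 ± 0.55 and SCARB1 by -1.76 ± 0.33. In AOC against IEC12, 4 of the 11 were higher and 3 lower, beside 22.4% and 36.2% of all genes. ABCA1, which exports cholesterol, was higher by 1.01 ± 0.21 (adjusted p = 0.0014). NPC1, which releases cholesterol from lysosomes, was higher by 2.05 ± 0.33 (adjusted p = 0.000192). NPC2 differed by -1.17 ± 0.13 and MYLIP by -0.56 ± 0.22. Of 15 genes of mitochondrial fatty acid oxidation, 3 were higher in AOC than in IEC12, beside 22.4% of all genes, and 8 lower, beside 36.2%.

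Libraries within a group did not sit equally, either for these genes or for all tested genes. In IEC12 A, 9 of the 27 genes were below 0.5 of the mean of IEC12 B and C, beside 21% of all tested genes, and the ratios were 0.0701 for FASN, 0.081 for MVD, 0.257 for MVK, 0.258 for SCAP, 0.301 for TM7SF2, 0.324 for DHCR7, 0.354 for FADS2, 0.472 for INSIG1 and 0.49 for SREBF2. The rest of the sterol enzymes in IEC12 A lay between 0.645 for HMGCS1 and 1.79 for MSMO1. AOC C had 1 gene below 0.5, FASN at 0.368, beside 7.04% of all genes, with MVD at 0.563 and DHCR7 at 0.583. IEC2 A had 3, namely FASN at 0.293, SREBF2 at 0.323 and SCAP at 0.483, beside 14.5% of all genes. In AOC C and IEC2 A the share of the 27 genes below 0.5 was smaller than that of all tested genes. FASN, SREBF2 and SCAP were below 0.5 in more than 1 of these libraries. With IEC12 A left out, 14 genes fell from IEC4 to IEC12 and 1 rose, and 17 were higher and 4 lower in AOC than in IEC12. The shares of all genes called without IEC12 A were not computed.

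**Figure D5:**
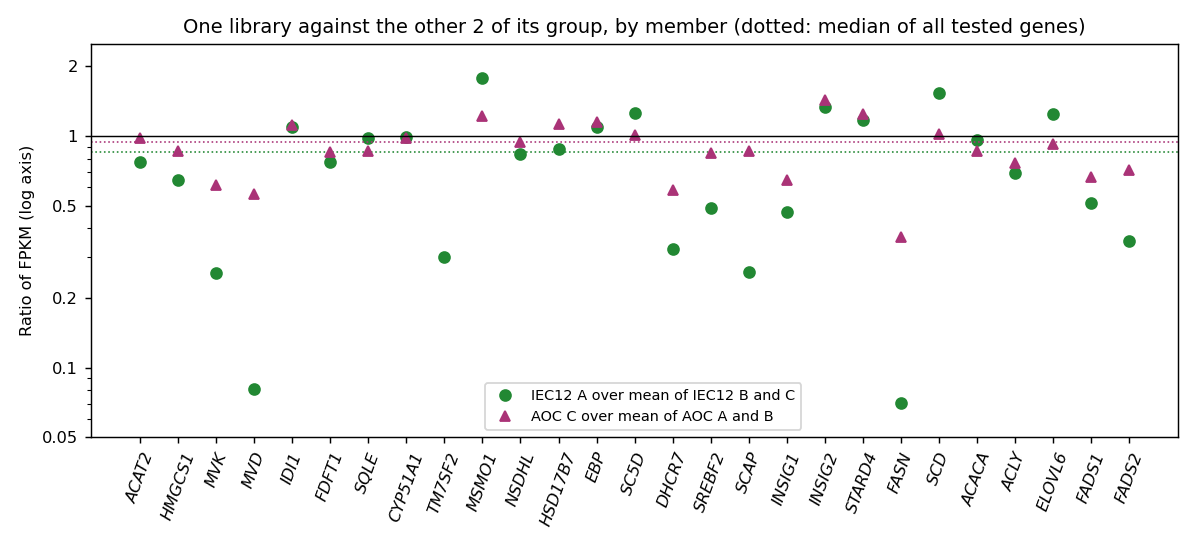
Ratio of FPKM in 1 library to the mean of the other 2 of its group, on a log axis, for IEC12 A (circles) and AOC C (triangles); TM7SF2 has no AOC ratio because it is listed at 0 there, and dotted lines are the medians of all tested genes (0.854 and 0.946). FASN and MVD in IEC12 A stand lowest, at 0.0701 and 0.081.

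Markers of other cells and of cell division moved with the stages. Of 6 cell division genes found, 3 were lower in IEC4 than in IEC2, beside 12.5% of all genes, and 5 higher in IEC12 than in IEC4, beside 17.3%. Their sum was 158.3 to 191.7 FPKM in IEC4, 290.0 to 322.9 in IEC2, 380.6 to 446.3 in IEC12 and 312.2 to 372.7 in AOC. This sum was lowest in IEC4, where the mevalonate sum was above those of IEC2 and IEC12. By mean FPKM, MCM2 was lowest in IEC2 (9.25, and 12.1 in IEC4) and TOP2A in AOC (23.1, and 26.7 in IEC4). KRT8, an epithelial keratin, was 300 to 748 FPKM in IEC4 and 12.9 to 20.2 in IEC2. Of the 3 pluripotency markers found, LIN28A was listed at 0 in IEC2 and was 3.012 to 5.855 FPKM in IEC4. NANOG and ESRRB were at most 1.075 in any library. Mesenchymal and haematopoietic markers went both ways. COL3A1 was 66.0 to 108 FPKM in IEC2 and 40.6 to 52.9 in IEC4, and COL1A1 0.273 to 0.381 and 2.18 to 9.86. PTPRC was at most 0.0258 in IEC2 and 2.14 to 3.49 in IEC4, and SPI1 5.345 to 9.16 and 1.22 to 1.79. At day 4, 9 of the 15 tested sterol enzymes rose, beside 24.8% of all genes. The part of epithelial or other cells in those rises was not tested. Markers of hepatocytes and adipocytes, cell types rich in these routes, were mostly near 0. Of the 4 hepatocyte markers found, ALB, APOB and TTR were at most 0.187 FPKM in any library, and APOA1 was 24.8 to 38.9 FPKM in AOC and at most 2.57 in the IEC libraries. Of the 5 adipocyte markers, ADIPOQ, LEP and FABP4 were at most 0.0793 FPKM and PLIN1 at most 0.263. CIDEC, a lipid droplet protein, was 2.48, 3.23 and 1.03 FPKM in AOC and at most 0.357 in the IEC libraries. It entered the fit only through the 3 AOC libraries, where it is high, so no test is read for it. The part of hepatocytes or adipocytes in the AOC values was not tested.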

How the data were processed

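RNA sequencing of 12 libraries was analysed, 3 biological replicates each of IEC2, IEC4, IEC12 and AOC, grouped by the letters and stages of the sample titles. Amplified cDNA (Smart-Seq2) was sequenced on an Illumina instrument. Each file the authors deposited holds an FPKM value for every gene. The submitters' processing notes name Bowtie2 (version 2.2.3), TopHat2 (version 2.0.12), Cufflinks (version 2.2.1) and the build susScr11, without saying which gave the values, and the paper names the Galaxy tool. FPKM is already scaled to library size, so a few abundant genes can shift all others, and reads shared by near-identical genes may be split.

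Symbols came from a table of gene names that held 13998 of the 19681 identifiers, and coordinates from RefSeq genes of Sscrofa11.1. A gene entered a fit when 3 or more of its libraries reached 1 FPKM, and limma (version 3.58.1, R version 4.3.3; eBayes with trend, two-sided) was run on log2(FPKM + 1). A fit of the 9 IEC libraries (10542 genes) gave the stage comparisons, and a fit of all 12 (11053 genes) gave those with AOC. Calls needed a Benjamini-Hochberg adjusted p under 0.05 over all genes of the fit. Fold changes on this scale understate those of low genes. Values at 0 are only said to be listed at 0. The test was checked on simulated data.

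The members, gene lists and tests were chosen with earlier results of these data known. Every member may be named. Of the other lists, genes named were called, did not overlap between groups and had the largest changes, up to 2 in each direction. LBR was added after the values were seen. Depth is not given. Steps of low values gave relative depths of 0.894 to 1.23 for 11 libraries and an uncertain one for IEC12 A, so no interval from counts was computed. A search of promoters for sterol-responsive motifs, which had been planned, was not run. Alternatives were a pseudocount of 0.1, no filter, only the 2 groups compared, replicate letter as a block, 2 other scalings, a variance free of mean expression, stricter limits and each replicate left out. Same-lettered libraries did not deviate together in every pair, so the letters were not taken as pairs. Figures were drawn with matplotlib (version 3.10.9, Python 3.11.15).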

Additional observations from a re-analysis of the deposited data

How the results depend on the processing

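Of 2102 values of single members under alternatives that kept the limit of adjusted p under 0.05, 1924 stayed on their side of the threshold, 132 lost a call, 46 gained one and 0 called members turned direction. Calls held in all 13 of these alternatives for 10 of 14 members higher in IEC4 than IEC2, 8 of 14 lower in IEC12 than IEC4, and 15 of 17, 13 of 15 and 16 of 18 higher in AOC than IEC2, IEC4 and IEC12. The calls that held were fewer among the members called the other way: 0 of 1 lower in IEC4 than IEC2, 0 of 2 higher in IEC12 than IEC4, and 1 of 5, 2 of 7 and 2 of 2 lower in AOC than IEC2, IEC4 and IEC12. For IEC12 against IEC2, 4 of 5 higher and 2 of 5 lower held. For IEC4 against IEC2, the 1 member lower became 3 in a fit of only these 2 groups and under median-of-ratios scaling, and 2 with equal totals. For IEC12 against IEC4, the 2 members higher became 1 without a filter, 1 with only these 2 groups, 1 with a variance not tied to expression and 0 with equal totals, but 3 under median-of-ratios scaling. Members lower in AOC went from 5 to 3 without a filter and 2 under median-of-ratios scaling and up to 6 with equal totals against IEC2, from 7 to 3 under that scaling and up to 9 with equal totals against IEC4, and from 2 to 1 with only the groups compared against IEC12. The limits of the study (p and adjusted p under 0.001, absolute log2 fold change above 3), set for another pair of groups, left 0 members in either direction in the 3 stage comparisons and in AOC against IEC4, and 1 higher and 0 lower in AOC against IEC2 and IEC12. An absolute log2 fold change above 1 left 9 higher and 0 lower in IEC4 against IEC2, 0 and 7 in IEC12 against IEC4, 1 and 2 in IEC12 against IEC2, 1 lower in AOC against IEC2 and 3 lower in AOC against IEC4. With 1 library left out at a time, members lower numbered 0 to 1 in IEC4 against IEC2, 9 to 15 in IEC12 against IEC4 (9 without IEC4 B), 3 to 6 in IEC12 against IEC2, 2 to 5, 3 to 6 and 2 to 4 in AOC against IEC2, IEC4 and IEC12, and members higher 0 to 2 in IEC12 against IEC4. The causes of these shifts were not tested. The shares of all genes called were not computed under the alternatives, the replicate block among them.

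Replicate letters were also fitted as a block. Deviations of same-lettered libraries correlated at -0.017, 0.058 and -0.073 in IEC4 against IEC2 at 0.246, 0.022 and 0.201 in IEC12 against IEC2, and at -0.366, 0.066 and -0.514 in AOC against IEC12. No comparison had all 3 pairs over 0.1, so the letters were not taken as pairs. The replicate block gave 16 members higher and 2 lower in IEC4 against IEC2, 1 and 16 in IEC12 against IEC4, and 16 higher and 5 lower in AOC against IEC2. Depth is unknown, so low genes such as DHCR7, TM7SF2, ACACA and FADS2 have errors that the FPKM alone cannot show, and 3 libraries a group limit every test.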
